A study of Drosophila melanogaster with 14 samples.

Results

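The proteasome genes described here are the 34 genes of the 17493 in the count table whose symbols are *Prosalpha*, *Prosbeta*, *Rpn* or *Rpt* followed by a number and which stand in the results table of at least 1 of the 2 experiments. They were chosen by name and then followed by FlyBase identifier. They comprise 13 subunits of the 20S core particle (6 alpha and 7 beta), 18 subunits of the 19S regulatory particle (10 of the base and 8 of the lid) and 3 testis-type paralogues. A further 14 genes of the same naming pattern are in the count table but in neither results table.

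The proteasome degrades proteins that carry ubiquitin chains. Its 20S core is a barrel of stacked rings, in which alpha subunits form the outer gated rings and beta subunits form the inner rings that hold the peptidase sites. The 19S particle caps the barrel, with a base of ATPases (Rpt) and scaffold and ubiquitin-receptor subunits (Rpn) that unfolds the substrate, and a lid that removes its ubiquitin. In *Drosophila* many subunits have a second gene copy that is expressed mainly in the male germ line, which gives the testis its own forms of the particle.

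Poly(A) RNA of whole embryos aged 10 to 15 h was sequenced in 14 samples to ask which transcripts change when 1 of the 2 main C-terminal forms of the kinase Sgg (the fly GSK-3) is lost. The first comparison had 3 samples of *sggisoA* null embryos, bred from a stock that is homozygous (females) or hemizygous (males) for the mutation, and 3 samples of the progenitor control line, titled THattP40 in the labels. The second had 4 samples of *sggisoB* zygotic null embryos, picked as the non-fluorescent progeny of *sggisoB*/FM7-GFP females and FM7-GFP/Y males, and 4 control samples, listed as attP40 in the labels, the non-fluorescent progeny of progenitor/FM7-GFP females and FM7-GFP/Y males. The *sggisoB* null embryos came from heterozygous mothers, so they received a maternal contribution. How much of it remained at 10 to 15 h was not measured here. Embryos without the GFP balancer are males in both of these groups, whereas the *sggisoA* null and control embryos were not picked by the balancer. Cross, sex, stock and experiment therefore cannot be told apart when a level of 1 experiment is set beside a level of the other.

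Total counts per sample lay between 15841397 and 18311205 in *sggisoA* null, between 8082962 and 12800846 in its control, between 14378062 and 25124367 in *sggisoB* null and between 11189291 and 23798611 in its control. The count of *sgg* covers all its exons and does not separate the deleted one. Its level, given in CPM (each count relative to the TMM-scaled size of its library, with factors over all 14 samples), was 262 to 324 in *sggisoA* null against 192 to 269 in its control, and 262 to 340 in *sggisoB* null against 326 to 384 in its control. All 10 marker genes of embryonic tissues passed the count filter in both comparisons. Among them *srp*, a GATA factor of hemocytes and fat body, rose in *sggisoB* null (log2 fold change 0.55, edgeR adjusted p = 0.00848), and *fkh* of the gut and salivary gland rose by 0.26 (edgeR adjusted p = 0.0469, between 0.0481 and 0.131 when single samples were left out). These were the only 2 of the 10 markers past an adjusted p of 0.05 in *sggisoB*, where 4.17% of all genes rose past it. The fitted change was below 0 for 6 of the 10. *Col4a1*, the other marker of hemocytes and fat body, averaged 2238 CPM in *sggisoB* null and 2378 CPM in its control, with overlapping samples. In these whole-embryo samples fewer cells of a type and less RNA per cell cannot be told apart. The study describes its *sggisoA* samples as biological replicates in triplicate. Nothing in the labels says that replicates came from separate collections, so the p-values measure the spread between these samples.

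The mean levels of the subunits spanned 30.8 to 98.5 per kilobase of exon. Per kilobase of exon (FPKM, from the exon lengths of the annotation used here) the 13 subunits of the 20S core lay between 50.95 and 98.5, with a median of 68.8, as means over the 4 conditions. The 18 subunits of the 19S particle lay between 30.8 and 74.3 FPKM, with a median of 49.3. *Prosbeta6*, *Prosbeta7* and *Prosbeta2* led the order of these means with 98.5, 90.1 and 87.1 FPKM. The order differed between conditions. *Prosbeta6* led in *sggisoB* null (105 FPKM) and its control (116 FPKM), whereas *Prosbeta7* led in *sggisoA* null (105 FPKM) and *Prosbeta2* in its control (101 FPKM). *Rpt4*, an ATPase of the base, had the highest 19S mean with 74.3 FPKM and led the 19S subunits in every condition but *sggisoA* control, where *Rpn10* had 82.4 and *Rpt4* had 69.4 FPKM. *Rpn1* and *Rpn2*, the large scaffold subunits of the base, closed it with 33.6 and 30.8 FPKM. The 20S median was above the 19S median in each condition, with 86.1 and 49.3 FPKM in *sggisoA* null, 78.4 and 56.8 FPKM in its control, 53.5 and 47.3 FPKM in *sggisoB* null, and 65.4 and 45.2 FPKM in its control. In all 30 pairs of neighbours in this order the means differed by less than the larger of the 2 SDs between replicates. Sorting makes the gaps between neighbours small, so this bears only on the order of neighbours. The 20S exons are shorter (815 to 1215 bases) than those of the 19S subunits (995 to 3412 bases).

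**Figure D1:**
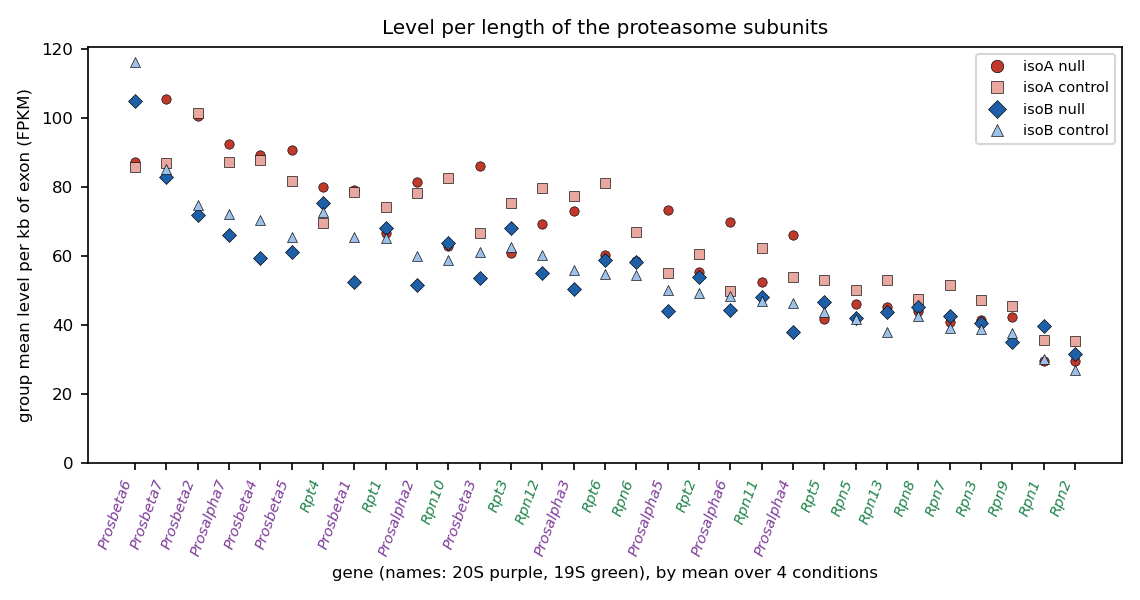
Level per kilobase of exon (FPKM, vertical axis) of the 31 subunits of the 20S (purple names) and 19S (green names) particles, ordered by their mean over the 4 conditions. Each symbol is the mean of 1 condition. Most 20S subunits stand to the left, *Rpn1* and *Rpn2* stand last at 33.6 and 30.8 FPKM, and the symbols of a gene from different conditions often lie further apart than those of neighbouring genes.

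Within a condition 1 sample was the highest for nearly all 20S subunits (11 of 13 in *sggisoA* null and 13 of 13 in the other conditions). The 19S subunits shared their highest sample in 15 of 18 in *sggisoA* null, 18 of 18 in its control, 12 of 18 in *sggisoB* null and 8 of 18 in its control. As the geometric mean of its 13 subunits, the 20S core stood at 84.6, 68.6 and 94.4 CPM in the *sggisoA* null samples, against 55.0, 63.6 and 102 CPM in their controls. It stood at 50.5, 58.8, 67.4 and 51.7 CPM in the *sggisoB* null samples, against 78.6, 55.6, 56.4 and 66.3 CPM in their controls. Null and control samples overlapped in both experiments.

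The 19S mean varied less, except in 1 sample. It was 88.0, 80.7 and 78.3 CPM in *sggisoA* null, against 82.2, 79.6 and 124 CPM in the control. In *sggisoB* null it was 77.9, 81.9, 85.4 and 82.7 CPM, against 78.5, 76.8, 75.9 and 75.7 CPM in the control. *sggisoA* control replicate 3 held the highest value of its group in 13 of 13 20S and 18 of 18 19S subunits. *sggisoB* control replicate 1 was the highest of its group in 13 of 13 20S subunits, but in 8 of 18 19S subunits, and it was the lowest in 5 of the 18. In *sggisoA* null, replicate 3 was the highest for 11 of 13 20S subunits and the lowest for 14 of 18 19S subunits.

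Replicates differed more in the 20S than in the 19S subunits. The median SD of log2 CPM within a condition was 0.26 for 20S and 0.11 for 19S subunits in *sggisoA* null, 0.49 and 0.36 in its control, 0.19 and 0.08 in *sggisoB* null, and 0.22 and 0.09 in its control. The 1893 genes with mean levels between those of the lowest and the highest subunit had median SDs of 0.12, 0.18, 0.16 and 0.11 in the same 4 conditions. These are descriptions, since the subunits of a particle share their samples. The 20S mean was also divided by the 19S mean in CPM. Exon length is not taken into account, so this ratio does not rank the particles. The ratio was 0.961, 0.849 and 1.21 in *sggisoA* null, against 0.669, 0.799 and 0.821 in its control. In *sggisoB* null it was 0.649, 0.718, 0.789 and 0.626, against 1.00, 0.724, 0.743 and 0.876 in its control. The ratio was thus higher in each *sggisoA* null sample than in any of its controls, while the *sggisoB* groups overlapped. This separation was not tested, and among all single genes 11.9% were higher without overlap in *sggisoA* null.

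**Figure D2:**
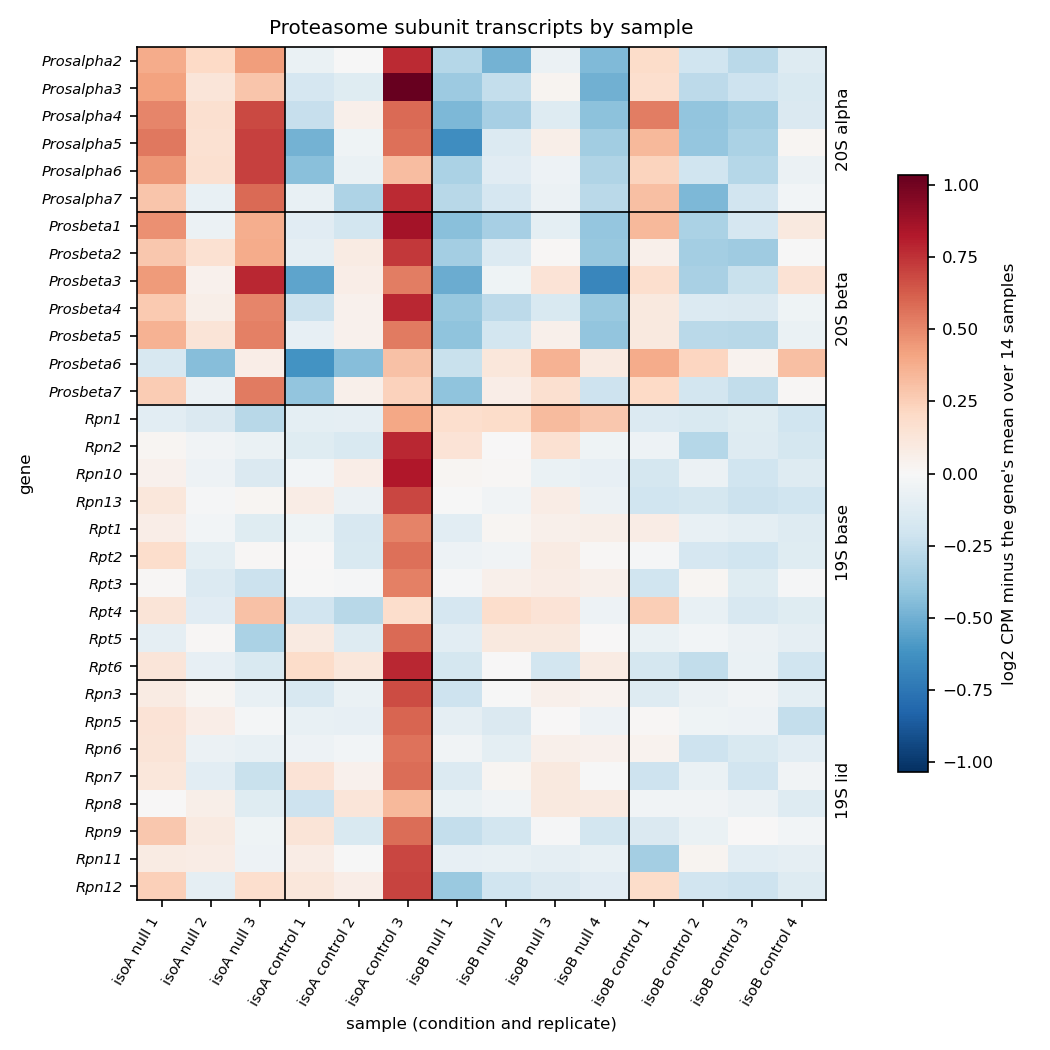
Level of each of the 31 subunits (rows, in 4 blocks by position in the particle) in each of the 14 samples (columns, in 4 blocks by condition), as log2 CPM minus the gene's mean over all samples, red above and blue below that mean. The column of *sggisoA* control replicate 3 is red for nearly all rows, the 20S rows are mostly red in *sggisoA* null and mostly blue in *sggisoB* null, and *Rpn1* is red in all 4 *sggisoB* null samples.

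**Figure D3:**
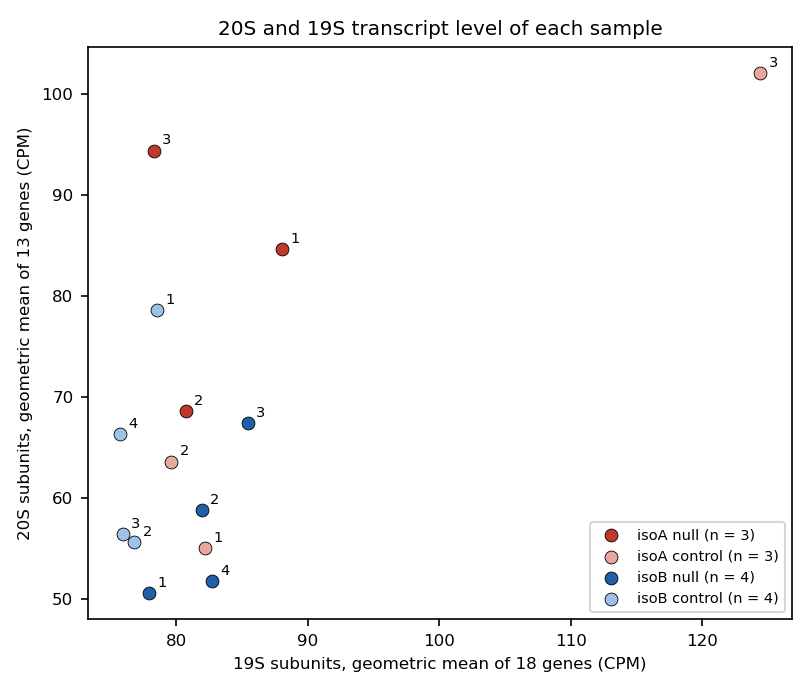
Geometric mean CPM of the 13 subunits of the 20S core (vertical) against that of the 18 subunits of the 19S particle (horizontal), 1 point per sample, numbered by replicate. *sggisoA* control replicate 3 stands alone at 124 and 102 CPM, and the other 13 samples span 75.7 to 88.0 CPM of 19S but 50.5 to 94.4 CPM of 20S.

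In *sggisoA* null embryos no subunit passed the test. Of the 33 members tested, 0 were called at an edgeR adjusted p of at most 0.05 and a size of at least 0.7 on the log2 scale, where 0.971% of all 10397 genes were called. Past the adjusted p alone there were again 0 of 33, against 0.991% of all genes (0.289% higher and 0.702% lower). DESeq2 and limma-voom also found 0 members past an adjusted p of 0.05, against 6.03% and 1.06% of all genes, and 1 of 33 members had an unadjusted edgeR p under 0.05, against 18.9% of all genes. The 20S subunits nevertheless lay mostly above 0 and the 19S subunits below. The fitted log2 fold change was above 0 for 11 of 13 20S subunits, with a median of 0.09 (alpha 0.20, beta 0.03), and below 0 for 17 of 18 19S subunits, with a median of -0.22 (base -0.26, lid -0.18). All genes tested had a median of -0.01, with 49.1% above 0. The 19S median rested on *sggisoA* control replicate 3. Without it all 13 20S subunits were above 0, with a median of 0.43, and 12 of 18 19S subunits were also above 0, with a median of 0.02. The 20S median turned below 0 without control replicate 1 (-0.052) and without control replicate 2 (-0.046). The sign turned in at least 1 of the alternative fits for 20 of the 33 members.

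Among the alpha subunits, *Prosalpha6* had the largest value. It had 74.6, 60.9 and 88.5 CPM in *sggisoA* null, against 40.2, 51.7 and 67.5 CPM in the control. The groups overlapped, and the log2 fold change of 0.49 (SE 0.21, n = 3 each) did not pass (edgeR adjusted p = 0.262). It was 0.31 without control replicate 1. *Prosalpha5* had 72.0, 54.9 and 80.5 CPM in null and 35.1, 47.7 and 73.2 CPM in control embryos, where control replicate 3 again lay among the null samples. Its log2 fold change was 0.41, with a 95% interval from -0.19 to 1.02, and it became 0.18 without control replicate 1 and 0.74 without control replicate 3.

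Among the beta subunits *Prosbeta3* had 77.8, 59.3 and 98.8 CPM in *sggisoA* null, against 39.4, 60.4 and 83.0 CPM in the control. Its log2 fold change of 0.37 had a 95% interval from -0.27 to 1.02. *Prosbeta7* had 128, 102 and 154 CPM in null and 80.1, 111 and 126 CPM in control embryos, a log2 fold change of 0.28 with an interval from -0.20 to 0.76. Null and control samples overlapped in both genes. Leaving out single samples gave 0.12 to 0.66 for *Prosbeta3* and 0.10 to 0.43 for *Prosbeta7*, in both cases lowest without control replicate 1.

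On the 19S side the largest values belonged to *Rpt6*, an ATPase of the base, and *Rpn10*, a ubiquitin receptor. *Rpt6* had 94.5, 81.6 and 77.6 CPM in *sggisoA* null, against 98.7, 93.9 and 149 CPM in the control, a log2 fold change of -0.42 (SE 0.19, edgeR adjusted p = 0.264). *Rpn10* had 95.3, 88.9 and 83.4 CPM in null and 90.4, 96.7 and 164 CPM in control embryos, a log2 fold change of -0.39 (SE 0.22, edgeR adjusted p = 0.36). In both genes the third control sample stood far above the other 5 samples. Without it the log2 fold changes were -0.19 for *Rpt6* and -0.07 for *Rpn10*.

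In the lid, *Rpn7*, a scaffold subunit, had 64.4, 55.1 and 50.8 CPM in *sggisoA* null, against 65.5, 61.2 and 88.9 CPM in the control, a log2 fold change of -0.34 (SE 0.17, edgeR adjusted p = 0.306) that became -0.16 without control replicate 3. *Rpn11*, the subunit that cuts ubiquitin chains from the substrate, had 65.4, 65.2 and 59.5 CPM in null and 64.9, 61.3 and 99.4 CPM in control embryos. Its log2 fold change was -0.24 and became 0.0007 without control replicate 3. The only 19S subunit above 0 was *Rpt4*, with a log2 fold change of 0.21 (SE 0.17, edgeR adjusted p = 0.512) that lay between 0.10 (without null replicate 3) and 0.36 (without control replicate 3). The groups did not overlap for 1 of the 33 members, *Rpn1*, which was lower in *sggisoA* null. Over all genes 24.7% had groups without overlap, 11.9% higher and 12.8% lower in null.

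**Figure D4:**
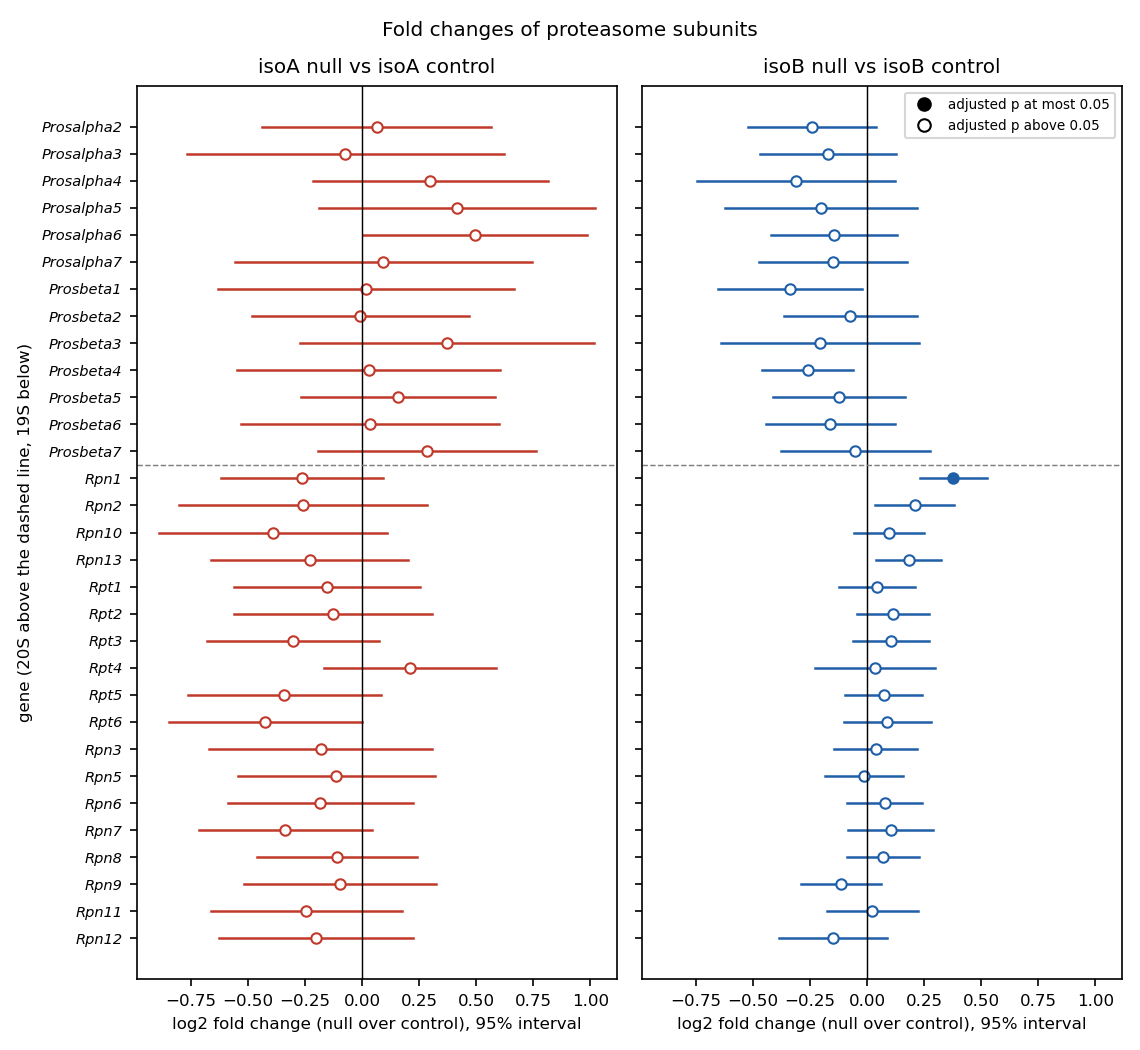
Fitted log2 fold change of null over control (point) with its 95% interval (line) for the 31 subunits, with *sggisoA* on the left and *sggisoB* on the right, 20S above the dashed line and 19S below. A filled point marks an edgeR adjusted p of at most 0.05, which *Rpn1* in *sggisoB* alone had (0.38). The *sggisoA* intervals are wider, and the *sggisoB* 20S points all lie left of 0.

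In *sggisoB* null embryos *Rpn1* rose and no other member passed the test. *Rpn1* (FBgn0028695, chromosome 3L, 19915051 to 19918160 on the plus strand of BDGP6) encodes a large scaffold subunit of the base, where ubiquitin shuttle proteins dock. It had 115, 116, 127 and 123 CPM in *sggisoB* null, against 92.3, 91.2, 93.2 and 88.0 CPM in the control. Every null sample was thus above every control sample. The log2 fold change was 0.38 (SE 0.07, 95% interval 0.23 to 0.53, n = 4 each, edgeR adjusted p = 0.0111), under the size of 0.7 that a call required. The adjusted p was at most 0.0431 whichever single sample was left out. It was 0.0751 (edgeR) when the replicate number was added to the fit as a block, and then no member passed. The labels do not say that null and control samples of the same number belong together.

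Of the 34 members tested, 0 were called in *sggisoB* null with the size threshold, where 4.56% of all 10693 genes were called. Past the adjusted p alone there was 1 of 34, against 11.1% of all genes (4.17% higher and 6.89% lower), and 5 of 34 had an unadjusted p under 0.05, against 30.9% of all genes. DESeq2 put 3 of 34 members past the adjusted p (*Rpn1*, *Rpn2* and *Rpn13*), against 19.6% of all genes. The share of members past the test was below that of all genes with both tools.

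The 2 particles lay on opposite sides of 0 in *sggisoB*. All 13 20S subunits had a fitted log2 fold change below 0, between -0.34 and -0.05 with a median of -0.17, while 50.9% of all genes were below 0 with a median of -0.01. The 19S subunits were above 0 in 15 of 18, with a median of 0.07, and *Rpn12*, *Rpn9* and *Rpn5* were the others. *Rpn5*, at -0.01, turned to 0.01 with DESeq2 size factors. All 10 base subunits were above 0 with a median of 0.10, and the lid was split, 5 above and 3 below, with a median of 0.03. The 20S median was -0.06 without *sggisoB* control replicate 1, the sample that was highest in all 13 of these genes, and 12 of 13 subunits then lay below 0. The 1409 genes with exons as long as those of the 20S subunits had a median of -0.10, and the 6204 genes in the length span of the 19S subunits had -0.01. In *sggisoA* the same length classes had medians of -0.16 and -0.05, so there the 20S median of 0.09 lay on the other side of 0 from its length class.

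*Prosbeta4* (FBgn0032596, chromosome 2L, 16731180 to 16732133) was the 20S subunit with the smallest p. It had 45.4, 49.4, 53.3 and 45.5 CPM in *sggisoB* null, against 63.9, 53.8, 53.6 and 57.6 CPM in the control. Every null sample was below every control sample, by as little as 0.3 CPM. The log2 fold change was -0.26 (SE 0.09, 95% interval -0.46 to -0.06), with an edgeR adjusted p of 0.0825. *Prosbeta1*, the subunit that cuts after acidic residues, had 41.1, 43.8, 51.6 and 42.2 CPM in null and 69.9, 44.2, 49.3 and 59.4 CPM in control embryos, a log2 fold change of -0.34 (SE 0.14, edgeR adjusted p = 0.137) that became -0.22 without control replicate 1. These groups overlapped.

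*Prosalpha4* had 40.6, 44.2, 51.2 and 41.9 CPM in *sggisoB* null, against 81.2, 42.2, 43.8 and 50.6 CPM in the control. Only control replicate 1 stood above all null samples, and the log2 fold change of -0.31 (SE 0.19, edgeR adjusted p = 0.295) became -0.06 without it. *Prosalpha2* had 47.9, 42.1, 56.4 and 43.0 CPM in null and 67.3, 51.1, 48.7 and 53.7 CPM in control embryos, a log2 fold change of -0.24 (SE 0.13, edgeR adjusted p = 0.222) that became -0.14 without control replicate 1.

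*Rpn2* and *Rpn13*, which bind each other in the base, moved the same way as *Rpn1* without passing the test. *Rpn2* (FBgn0028692, chromosome 3R, 29153524 to 29157255) had 113, 103, 114 and 99.2 CPM in *sggisoB* null, against 98.9, 83.6, 93.4 and 90.4 CPM in the control, a log2 fold change of 0.21 (SE 0.08, edgeR adjusted p = 0.105, DESeq2 adjusted p = 0.0439). *Rpn13*, a ubiquitin receptor named here after its values were seen, had 73.0, 71.4, 77.1 and 70.3 CPM in null and 63.3, 64.6, 62.6 and 63.3 CPM in control embryos, a log2 fold change of 0.18 (SE 0.06, edgeR adjusted p = 0.0933). Null samples were above control samples without overlap in both genes. With *Rpn1* these were 3 of 34 members with null samples higher and apart, where 9.45% of all genes were so (20.7% in either direction), and *Prosbeta4* was the 1 member that was lower and apart, where 11.2% of all genes were so.

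In the lid the largest values were below 0. *Rpn12* had 48.6, 54.9, 57.1 and 58.5 CPM in *sggisoB* null, against 72.3, 55.2, 54.7 and 57.7 CPM in the control, where replicate 1 stood apart. Its log2 fold change was -0.15, with a 95% interval from -0.39 to 0.09, and -0.05 without that sample. *Rpn9* had 55.4, 57.5, 65.1 and 57.5 CPM in null and 59.0, 62.6, 65.8 and 64.4 CPM in control embryos, a log2 fold change of -0.12 with an interval from -0.29 to 0.06. Reads on 264 of its 1679 exon bases lie over genes of the opposite strand, which the counting discards.

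**Figure D5:**
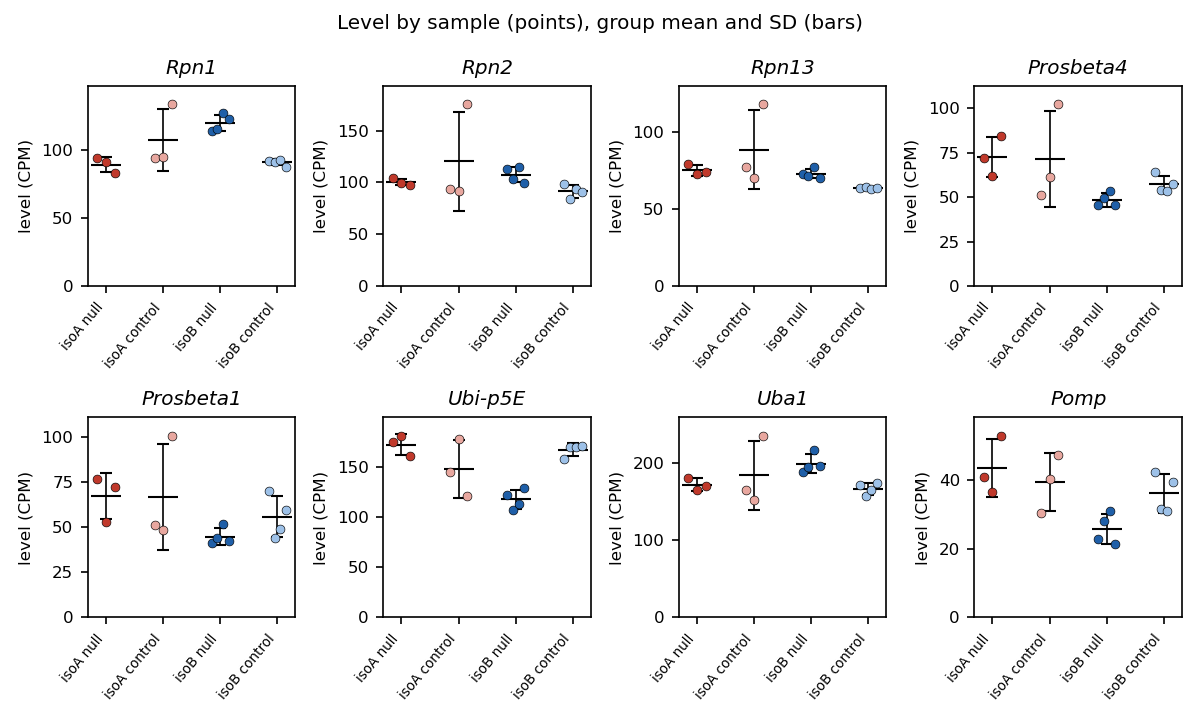
Level in CPM (vertical axis, from 0) of 5 subunits and 3 genes of the ubiquitin and assembly list, with a point per sample and the mean and SD of each condition as bars. The 4 *sggisoB* null samples lie above their controls for *Rpn1* (115 to 127 against 88.0 to 93.2 CPM) and below them for *Ubi-p5E* (107 to 129 against 157 to 170 CPM), and 1 *sggisoA* control sample stands above the other samples of each subunit shown.

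The *sggisoB* and *sggisoA* effects (null against control) were compared by testing the difference of the 2 effects in a fit of all 14 samples. The 2 experiments also differ in cross, sex and maternal product. A difference of the effects therefore cannot be assigned to the form that was lost. *Rpn1* was the only one of 34 members past the test, with a difference of 0.67 (isoB effect minus isoA effect on the log2 scale, SE 0.16, edgeR adjusted p = 0.0393), where 2.54% of all 11021 genes passed (1.71% with a positive and 0.835% with a negative difference). Its own log2 fold changes were 0.38 in *sggisoB* and -0.26 in *sggisoA* (SE 0.16, edgeR adjusted p = 0.381), the second of which was -0.08 without *sggisoA* control replicate 3. The *sggisoA* samples of *Rpn1* were 94.1, 91.7 and 83.0 CPM in null and 94.4, 95.1 and 134 CPM in control embryos. The difference was past the threshold in 3 of 14 fits that left out a single sample and not in the other 11, where the adjusted p reached 0.115, and without *sggisoA* control replicate 3 it was 0.47 (edgeR adjusted p = 0.0622).

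The difference of the effects was below 0 for all 13 20S subunits, with a median of -0.28, and above 0 for 17 of 18 19S subunits, with a median of 0.29, beside -0.02 over all genes, of which 48.5% were above and 51.5% below 0. An unadjusted p under 0.05 was found for 8 of 34 members, against 20.9% of all genes, 7 of them in the 19S particle and 1, *Prosalpha6* (-0.62, SE 0.25, edgeR adjusted p = 0.176), in the core. Without *sggisoA* control replicate 3 the 19S median was 0.05, with 12 of 18 subunits above 0, and the 20S median was -0.62.

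The testis-type paralogues were close to the limit of counting. Of the 16 in the list, 3 are members and were followed through the tests. *Rpt3R* (FBgn0037742, chromosome 3R, 9754735 to 9756510), the paralogue of the ATPase *Rpt3*, had 24, 24 and 24 raw counts in *sggisoA* null against 9, 11 and 16 in its control, and 5, 27, 13 and 59 in *sggisoB* null against 11, 8, 11 and 14 in its control. Most of the *sggisoB* null counts came from replicate 4, and the log2 fold change of 1.00 had a 95% interval from -0.21 to 2.20 (edgeR adjusted p = 0.236) and was 0.31 without that sample. In *sggisoA* it was 0.22 (SE 0.38, edgeR adjusted p = 0.78), with the larger library sizes of the null samples taken into account.

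*Rpt6R* (FBgn0039788, chromosome 3R, 30582198 to 30583697) had 26, 9 and 3 counts in *sggisoA* null against 16, 7 and 5 in its control, and 8, 24, 6 and 73 in *sggisoB* null against 87, 11, 7 and 21 in its control. Single samples held most of its counts, and the log2 fold changes were -0.33 (SE 0.69) and -0.30 (SE 0.80). *Rpn13R* (FBgn0029745, X chromosome, 5131898 to 5132985) did not pass the filter in *sggisoA*, where it had 6, 9 and 12 counts in null and 7, 1 and 10 in control samples. In *sggisoB* it had 8, 9, 15 and 12 counts in null and 17, 4, 18 and 17 in control samples, a log2 fold change of -0.41 (SE 0.32, edgeR adjusted p = 0.4) that was -0.25 without null replicate 2. No testis-type member passed the test with edgeR, DESeq2 or limma-voom, and 0 had an unadjusted edgeR p under 0.05, against 18.9% of all genes in *sggisoA* and 30.9% in *sggisoB*.

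The other 13 paralogues had at most 26 counts in a sample. *Prosbeta2R2* reached 26 counts in *sggisoB* null replicate 4, *Prosalpha4T1* 13 in *sggisoB* control replicate 3, *Rpt4R* 12 in *sggisoA* null replicate 1 and *Rpn12R* 4 in *sggisoB* control replicate 1, and each of the rest had at most 3. *Prosbeta5R1* had 0 counts in all 14 samples, which with a floor of 3 counts allows up to 0.119 to 0.371 CPM per sample. These 2 limits are relative to the total counts without TMM scaling. The summed level of the 16 paralogues was 3.15 to 3.72 CPM in *sggisoA* null, 2.57 to 3.60 CPM in its control, 1.91 to 7.65 CPM in *sggisoB* null and 2.72 to 5.86 CPM in its control. Of 14 testis marker genes 6 were tested in *sggisoA* and 5 in *sggisoB*, and 0 passed an adjusted p of 0.05 in either with edgeR (1 and 0 at an unadjusted p under 0.05, against 18.9% and 30.9% of all genes). Their summed level was 175 to 225 CPM in *sggisoA* null and 179 to 241 CPM in its control. In *sggisoB* null it was 257 to 281 CPM, against 240 to 294 CPM in its control. Nearly all of it came from *bol* and *twe*, with group means of 102 to 209 CPM and 54.4 to 85.2 CPM. The sum thus describes these 2 genes, and whether their RNA came from the testis was not tested. *dj*, *sa*, *nht* and *Mst84Db* were at or near 0 in every sample. Among the markers *bol* had a log2 fold change of -0.52 in *sggisoA* (edgeR adjusted p = 0.119) and was past the threshold there with DESeq2 (adjusted p = 0.0113) and in the edgeR fit of all 14 samples (adjusted p = 0.0257).

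*Prosalpha1* (FBgn0263121, chromosome 2R, 7827303 to 7828678), the remaining alpha subunit, was at 0 in all 14 samples, as was its copy *Prosalpha1R* (FBgn0050382, chromosome 2R, 7830413 to 7831771). The counting left out reads that align to more than 1 place, so a 0 of such a pair does not show that the gene is silent.

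Genes that act beside the particle were followed as a list of 19, taken from known roles in assembly, ubiquitin supply and regulation. In *sggisoB* null 1 of 19 was past an adjusted p of 0.05, and it fell, where 6.89% of all genes did so. This was *Ubi-p5E* (FBgn0086558, X chromosome, 6276876 to 6279647 on the minus strand), a gene that encodes ubiquitin as a chain of repeats. It had 122, 107, 113 and 129 CPM in *sggisoB* null, against 157, 169, 170 and 170 CPM in the control, and the groups did not overlap. The log2 fold change was -0.52 (SE 0.07, 95% interval -0.69 to -0.36, edgeR adjusted p = 0.00517). In *sggisoA* null it had 174, 181 and 161 CPM, against 145, 178 and 120 CPM in the control, a log2 fold change of 0.22 (SE 0.16, edgeR adjusted p = 0.462) that was 0.09 without control replicate 3 and 0.39 without control replicate 2. The difference of the 2 effects was -0.72 (SE 0.16, edgeR adjusted p = 0.0286), past the threshold in 5 of 14 fits without a single sample and up to 0.0818 in the other 9. Repeats within *Ubi-p5E* and the related *Ubi-p63E* can make reads ambiguous, and the counting drops these. *Ubi-p63E* had a log2 fold change of -0.22 in *sggisoB* (SE 0.09, edgeR adjusted p = 0.138).

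*Pomp*, the chaperone of 20S core assembly, had 22.9, 28.1, 30.9 and 21.3 CPM in *sggisoB* null, against 42.3, 31.6, 31.0 and 39.5 CPM in the control. The groups came within 0.1 CPM of each other without overlap. The log2 fold change of -0.50 (SE 0.15, edgeR adjusted p = 0.0589) was past the threshold with DESeq2 (adjusted p = 0.0216). Reads over 437 of its 1092 exon bases, which overlap *vari* on the other strand, were not counted for it. In *sggisoA* it had 41.0, 36.6 and 52.9 CPM in null and 30.5, 40.3 and 47.3 CPM in control embryos, and the difference of the effects was -0.63 (SE 0.26, edgeR adjusted p = 0.184).

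*Uba1*, the ubiquitin-activating enzyme, and *Usp14*, a deubiquitinase that binds Rpn1 in yeast and mammals, were named after their values were seen. *Uba1* had 188, 195, 216 and 196 CPM in *sggisoB* null, against 171, 157, 165 and 174 CPM in the control, a log2 fold change of 0.24 (SE 0.07, edgeR adjusted p = 0.0616), and DESeq2 put it past the threshold. *Usp14* had 58.6, 62.3, 64.4 and 65.4 CPM in null and 50.2, 57.3, 56.1 and 55.4 CPM in control embryos, a log2 fold change of 0.18 (SE 0.08, edgeR adjusted p = 0.151). In both, every null sample was above every control sample. They were the 2 of 19 list genes that were higher and apart in *sggisoB* null, where 9.45% of all genes were so. *Ubi-p5E* and *Pomp* were the 2 that were lower and apart, where 11.2% of all genes were so. An unadjusted edgeR p under 0.05 was found for 5 of 19, against 30.9% of all genes.

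In *sggisoA* null 0 of the 19 genes passed an adjusted p of 0.05 with edgeR, DESeq2 or limma-voom, against 0.991%, 6.03% and 1.06% of all genes. With edgeR 2 of 19 had an unadjusted p under 0.05, against 18.9% of all genes. These were *Ufd1* (-0.37, SE 0.16) and *maf-S*, a partner of the transcription factor Cnc (-0.34, SE 0.14), which had -0.22 and -0.21 without control replicate 3. Null samples were lower and apart for 3 of the 19 genes, where 12.8% of all genes were so. Those higher and apart numbered 0, where 11.9% of all genes were so. The largest values were those of *Uch-L5*, a deubiquitinase of the 19S particle, and *Pngl*, which removes N-linked sugars from misfolded proteins. *Uch-L5* had 74.3, 69.4 and 97.1 CPM in *sggisoA* null, against 38.9, 66.5 and 72.1 CPM in the control, a log2 fold change of 0.44 (SE 0.24, edgeR adjusted p = 0.35). *Pngl* had 47.5, 45.0 and 59.8 CPM in null and 31.2, 37.3 and 47.4 CPM in control embryos, a log2 fold change of 0.40 (SE 0.19, edgeR adjusted p = 0.291). Null and control samples overlapped in both, and without control replicate 1 the log2 fold changes were 0.20 for *Uch-L5* and 0.24 for *Pngl*.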

How the data were processed

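Poly(A) RNA of 14 embryo samples was sequenced from a single end from directional libraries. The authors aligned reads with TopHat (2.1.1) and Bowtie (2.3.4.0) and counted them over FlyBase exons with Rsubread defaults, which ignore strand and drop reads that align to several places or overlap several genes. The deposited values used here are raw counts for 17493 genes. The authors' result tables repeat these counts (147926 values compared, 0 differing) beside log2 CPM, fold changes and p-values, which were not used apart from the gene names.

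Genes were kept by filterByExpr (minimum count 10, total 15), scaled by TMM and tested per experiment with the quasi-likelihood test of edgeR 4.0.16 in R 4.3.3, with Benjamini-Hochberg adjustment over all genes kept. The study's tool, limma-voom (limma 3.58.1), and DESeq2 1.42.0 were alternatives, as were DESeq2 size factors, no filter, 1 fit of all samples, a replicate block and leaving out each sample. Called genes had an adjusted p of at most 0.05 and moved by 0.7 or more on the log2 scale. SEs were derived from the F statistic. The test scripts were tested on simulated data.

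Positions and exon lengths are those of Ensembl 115 (BDGP6.54), later than the annotation that was counted, and 17362 of 17493 identifiers had a symbol there. Exons of 13 members share bases with a gene of the other strand. Replicate pairs differed beyond sampling noise (chi-squared per gene 12.4 to 79.1 in 18 pairs). Values by sample are given for genes past an adjusted p of 0.05, for the 2 largest changes per comparison among alpha, beta, base and lid subunits and the partner list, and for testis-type genes with over 3 counts. *Rpt4*, *Rpn5*, *Rpn13*, *Uba1*, *Usp14*, *Ufd1*, *maf-S*, *Ubi-p63E*, *srp*, *fkh*, *bol* and the differences of *Prosalpha6* and *Pomp* were added after their values were seen. The members and lists were chosen with earlier results of these data known. Of 21 partner symbols, 19 matched, and the other 2 were not analysed here.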

Additional observations from a re-analysis of the deposited data

Results flagged for a closer look

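Dixon's criterion was applied to 30 quantities in the 2 groups of 4 samples, and 3 of these 60 groups had a sample past the 95% critical value, where chance gives about 1 in 20. All 3 were *sggisoB* control replicate 1. *Rpn12* had 72.3 CPM there, with the next sample at 57.7 CPM, and *Uch-L5* had 79.1 CPM, with the next sample at 61.3 CPM. *Ubi-p5E* had 157 CPM there, below the nearest sample at 169 CPM, and its fall in *sggisoB* null was -0.56 without this sample.

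The interaction term of edgeR over all 14 samples passed an adjusted p of 0.05 for 1 of 34 members and 1 of 19 partner genes. Over all 11021 genes 2.54% passed. Passing this test was itself a rule by which genes were named, so their number among the named genes is no separate result. *Rpn1* had a difference of 0.67 (isoB effect minus isoA effect, adjusted p = 0.0393) and *Ubi-p5E* had -0.72 (adjusted p = 0.0286). These calls were lost in 11 of 14 fits without a single sample for *Rpn1* and 9 of 14 for *Ubi-p5E*, and with the replicate block for both (adjusted p = 0.173 and 0.0703).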

How the results depend on the processing

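No member passed both thresholds in either comparison under the alternatives run, and *Rpn1* passed the adjusted p in *sggisoB* in every alternative but the replicate block. With DESeq2, 3 members passed it. Correlations of same-numbered deviations were -0.183, -0.129 and -0.0884 in *sggisoA*, and -0.137, -0.221, 0.0482 and 0.182 in *sggisoB*. The highest correlations with another number were 0.186, 0.226 and 0.163, and 0.189, 0.37, 0.0254 and 0.143. The same number was thus the closest for replicates 3 and 4 of *sggisoB* and for no other. With the replicate block, 0 members passed in *sggisoB* (*Rpn1* 0.376, edgeR adjusted p = 0.0751) and 0 in the test of the difference (*Rpn1* 0.647 and adjusted p = 0.173, *Ubi-p5E* -0.741 and 0.0703), and the genes past the adjusted p over all genes numbered 44, 199 and 63 in *sggisoA*, *sggisoB* and the difference, in place of 103, 1183 and 280. DESeq2 gave 627, 2096 and 852, and the fit of all samples gave 573 in *sggisoA*.

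Leaving out single samples, the count past the test of the difference ranged from 0 to 1. The median log2 fold change in *sggisoA* ranged from -0.0519 to 0.429 for 20S and from -0.345 to 0.0218 for 19S subunits, so both changed sign, and in *sggisoB* from -0.285 to -0.0596 and from 0.0489 to 0.102. *Rpn11* in *sggisoA* ranged from -0.357 to 0.000702, *Rpt3R* from -0.0854 to 0.423 and *Rpt6R* from -1.33 to 0.0832, and in *sggisoB* *Rpt6R* ranged from -1.3 to 0.736 and *Rpn5* from -0.0647 to 0.0306. *Rpn5* was also above 0 with DESeq2 size factors (0.012), with DESeq2 (0.0126), without the count filter (0.0173) and in the fit of all samples (0.00775). Over all members tested, the sign turned in at least 1 alternative for 20 of 33 in *sggisoA*, 5 of 34 in *sggisoB* and 9 of 34 in the test of the difference, and in alternatives other than leaving out a sample for 2, 1 and 1. In the list of 19 partner genes it turned for 7, 9 and 4. Fold changes under each alternative were tabulated for the genes whose fold change is given in that comparison, a limit set after sign changes among the other genes had been seen. The counts above include those others. With 3 samples a group the SEs of the 31 subunits in *sggisoA* were 0.15 to 0.30.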
